A study of Mus musculus with 30 samples.

Results

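Oxidative phosphorylation genes were followed in the denervated cervical spinal cord of mice from 4 to 42 days after a cortical stroke (dpi). Members were the genes whose symbol marks them as NADH dehydrogenase (Nduf), cytochrome c oxidase (Cox4 to Cox8), ubiquinol-cytochrome c reductase (Uqcr) or ATP synthase (Atp5) genes of the nucleus, pseudogenes left out, together with the protein-coding genes of the mitochondrial genome. The rule found 96 members among 16995 measured genes, 83 encoded in the nucleus and 13 in the mitochondrion. The rule uses names and no expression value, although earlier results of these data were known when it was set.

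All animals were adult female C57BL/6J mice and RNA was taken from the intermediate laminae of spinal levels C5/C6, in stroke animals on the side that had lost its cortical input. Stroke animals had received a photothrombotic lesion of the right sensorimotor cortex, made with Rose Bengal and light, and were killed at 4, 7, 14, 28 or 42 dpi. The sham group, labelled Ctrl, underwent the operation with no illumination of the skull. Values were used for 5 sham animals, 4 animals at 4 dpi and 5 at each later time. The tissue was coarsely cut out with blades before it was frozen and holds a mixture of cell types, so that fewer cells of a type and less RNA per cell cannot be told apart.

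Oxidative phosphorylation passes electrons from NADH and succinate along complexes I to IV of the inner mitochondrial membrane to oxygen, and complex V (ATP synthase) uses the resulting proton gradient to make ATP. Complexes I, III, IV and V are built from subunits of both genomes, whereas complex II is wholly nuclear. The mitochondrial genes are transcribed as long precursors by a polymerase of their own, and the nuclear genes are transcribed singly and translated in the cytosol. Neurons draw most of their ATP from this pathway, and nuclear respiratory factor 1 (NRF1) and the ETS factor GABP (NRF2) are known activators of many of its nuclear genes.

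The 250 bases before the start of 4 nuclear members are printed because most nuclear members were called lower at 28 dpi. They are the members with the smallest p at 28 dpi among the accessory subunits of complex I and the subunits of complexes III, IV and V that hold an NRF1 or ETS match. Capitals mark the NRF1 letters GCGCATGC or the ETS letters CCGGAAG, searched on both strands in RefSeq promoters of GRCm38.p6.
Ndufa6, chr15:82354292-82354541, minus strand: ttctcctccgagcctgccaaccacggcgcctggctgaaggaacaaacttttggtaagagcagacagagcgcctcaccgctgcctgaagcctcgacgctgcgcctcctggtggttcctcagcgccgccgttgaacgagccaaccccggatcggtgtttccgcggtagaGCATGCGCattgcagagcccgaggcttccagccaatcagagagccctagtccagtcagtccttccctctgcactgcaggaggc
Uqcr11, chr10:80406822-80407071, minus strand: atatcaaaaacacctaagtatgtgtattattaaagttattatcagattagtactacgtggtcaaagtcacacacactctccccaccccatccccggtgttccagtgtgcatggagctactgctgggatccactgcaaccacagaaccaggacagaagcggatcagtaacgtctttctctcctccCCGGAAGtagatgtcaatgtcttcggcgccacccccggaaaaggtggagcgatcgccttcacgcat
Cox6a1, chr5:115348959-115349208, minus strand: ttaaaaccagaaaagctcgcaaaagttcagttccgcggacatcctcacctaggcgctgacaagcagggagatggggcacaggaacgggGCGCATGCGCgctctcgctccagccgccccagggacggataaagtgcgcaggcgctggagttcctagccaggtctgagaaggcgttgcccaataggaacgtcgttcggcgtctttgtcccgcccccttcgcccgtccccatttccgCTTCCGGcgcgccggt
Atp5e, chr2:174464102-174464351, minus strand: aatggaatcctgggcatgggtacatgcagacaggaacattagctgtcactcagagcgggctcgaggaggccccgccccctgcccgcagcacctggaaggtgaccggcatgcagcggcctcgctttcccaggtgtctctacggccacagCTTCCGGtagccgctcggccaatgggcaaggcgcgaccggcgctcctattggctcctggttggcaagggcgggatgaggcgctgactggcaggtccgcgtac

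In Cox6a1 the NRF1 letters match on both strands in overlapping positions, and the ETS letters lie at 16 to 10 bases before the start. Promoters were found for 68 of the 83 nuclear members. The NRF1 letters were present in 8 of these 68 (11.8%), against 4.58% of the 11812 measured genes with a promoter and 2.26% of all 32851 promoters of this length. The ETS letters were present in 13 members (19.1%), against 13.7% of measured genes and 6.91% of all promoters. The YY1 letters AAGATGG were found in 1 member (1.47%, against 5.17% of measured genes) and the SP letters GGGGCGGGG in 7 (10.3%, against 21.1%). These are matches of letters and do not show binding. At 28 dpi the 8 members with the NRF1 letters had a median log2 fold change against sham of -0.46, the same as the 60 members without them. The median was -0.49 in the 13 members with the ETS letters and -0.44 in the 55 without. It was -0.34 in the 7 members with the SP letters and -0.46 in the 61 without. These differences were not tested.

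Values are normalized CPM (read counts scaled by library size) as deposited, rounded to 0.1, and the depth of the samples is unknown. Summed over all genes they ranged from 714597 to 2256910 per animal, while the median gene lay between 10.2 and 11.2 in every animal. The sums moved with the 18S ribosomal RNA gene Rn18s-rs5, which ranged from 18295 to 817780. In 9 animals it exceeded 3 times the highest sham value of 52929: 2 animals at 14 dpi (A5-3 and A6-3), 4 of 5 at 28 dpi (A3-1, A3-3, A4-3 and A4-4) and 3 at 42 dpi (A1-1, A1-2 and A3-4). All 7 neuronal, 6 astrocyte, 6 oligodendrocyte and 6 microglial marker genes had values, with summed levels of 3951 to 5914, 2432 to 2975, 6223 to 9261 and 66.0 to 78.3 in sham animals. Markers of skeletal muscle and Schwann cells were not analysed here.

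On a scale of normalized CPM per kilobase of the longest transcript, averaged over the 29 animals, mitochondrially encoded members stood above nearly all nuclear ones. By the values assigned to each gene, the highest was mt-Co1, the catalytic core of cytochrome c oxidase, at 6445. It was followed by mt-Atp6, the proton channel subunit of ATP synthase, at 2540 and mt-Nd1 at 1904. This order leaves out near-identical nuclear copies. Of the sum with copies mt-Co2 held 6.3 to 22.6% and mt-Co3 21.4 to 63.1%, so their place in the order is uncertain. The lowest mitochondrial members were mt-Nd4l at 233 and mt-Nd6 at 217. The nuclear members with the highest level per kilobase were Atp5b, the catalytic beta subunit of ATP synthase, at 412, Cox4i1 at 254 and Atp5a1 at 228. Median levels per kilobase were 48.1 for the 7 nuclear core subunits of complex I, 34.8 for its 29 accessory subunits, 59.4 for complex III, 84.8 for complex IV, 63.4 for complex V and 6.14 for the 8 assembly factors of complex I. A summed level of 17139 ± 3234 normalized CPM (SD, n = 5) over the 13 mitochondrial members in sham animals was 2.43% of the animals' sum without ribosomal RNA, and the 83 nuclear members together made up 0.831%.

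In the first 14 days no member passed the threshold, and the medians of both genomes lay above sham at 14 dpi. Comparisons used limma on log2(value + 0.5) over all 29 animals with Benjamini-Hochberg adjustment over 16995 genes, and a member was called at an adjusted p under 0.05. By this test 0 of 96 members were called at 4 dpi (0.106% of all genes), 0 at 7 dpi (0.0294%) and 0 at 14 dpi (0.00588%). At 4 dpi the median log2 fold change was 0.070 for nuclear and 0.17 for mitochondrial members, and no member had an unadjusted p under 0.05. At 7 dpi the medians were 0.16 and 0.38. Higher values with an unadjusted p under 0.05 were found at 7 dpi in 1 nuclear and 8 mitochondrial members (2.22% of all genes). At 14 dpi the medians were 0.27 and 0.59, beside -0.0085 over all genes, and 82 of 83 nuclear and 13 of 13 mitochondrial members had a positive log2 fold change. Where every animal was scaled to the same sum, ribosomal RNA included, the nuclear median at 14 dpi was instead -0.24 and the mitochondrial 0.062, with the median of all genes at -0.48. On the deposited scale 41 nuclear members (49.4%) and 13 mitochondrial members had an unadjusted p under 0.05, against 6.25% of all genes that were higher at this limit. In 7 mitochondrial and 2 nuclear members every 14 dpi animal exceeded every sham animal (1.11% of all genes). The 2 nuclear genes were Ndufa13 and Atp5s. The sham animal A11-1 stood apart, with mean scores of -0.43 for nuclear and -0.53 for mitochondrial members (log2 units relative to the sham mean), where the other sham animals were at -0.065 or higher. Without it the nuclear medians were -0.031, 0.049 and 0.16 at 4, 7 and 14 dpi and the mitochondrial ones 0.016, 0.23 and 0.45. At 4 dpi the nuclear median was -0.0082 and the mitochondrial 0.024 without the 4 dpi animal A10-1, and the nuclear median was between 0.13 and 0.15 without sham A12-1, sham A12-3 or 4 dpi A9-2. Microglial markers at 14 dpi had a mean score of 0.41 (log2 units relative to sham), 4 of 5 animals exceeded every sham animal, and 5 of 6 genes had an unadjusted p under 0.05. The meningeal score was 0.29 (3 of 5 animals above the sham maximum, 2 of 3 genes at this limit) and the neuronal score 0.18 (1 of 5). Of 82 cytosolic ribosomal protein genes 47 had an unadjusted p under 0.05 (median log2 fold change 0.32), and the 2 mitochondrial ribosomal RNAs had a median of 0.65. None of these was called, and their part in the values of the members was not tested.

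mt-Nd1, a core subunit of complex I, shared no 31-base word with another gene. Sham animals had 987, 1516, 1589, 1745 and 1967 normalized CPM, and the 14 dpi animals 2106, 2194, 2217, 2558 and 2699. The groups did not overlap, and the log2 fold change at 14 dpi was 0.62 ± 0.18 (SE) with an adjusted p of 0.381 (limma) and an exact two-sided permutation p of 0.00794, the smallest that 5 against 5 animals allow. For mt-Cytb, the mitochondrial subunit of complex III, the 14 dpi range of 1429 to 1715 also lay above the sham range of 572 to 1307, with a log2 fold change of 0.66 ± 0.22 (adjusted p = 0.381 by limma). mt-Nd6, the only protein-coding gene of the light strand, had the largest mean rise of the 13, from 82.8 ± 20.4 (SD, n = 5) to 145 ± 30.6 (SD, n = 5), a log2 fold change of 0.82 ± 0.19 (adjusted p = 0.198 by limma), and 1 of 5 animals overlapped with sham. The library kit did not mark strand, so RNA from mt-Nd6 and from the opposite strand cannot be told apart.

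**Figure D1:**
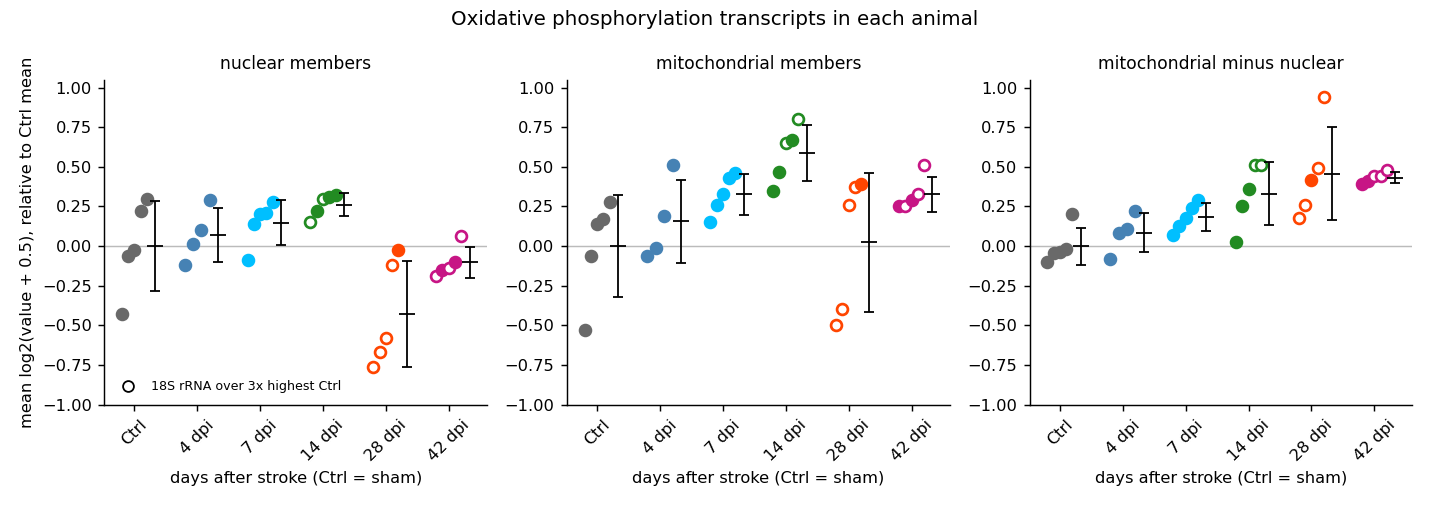
Mean of log2(value + 0.5) over 83 nuclear members (left), over 13 mitochondrial members (middle) and the difference of these means (right) for each animal, each gene set to its sham mean. Points are animals, open points the 9 animals with high 18S rRNA, and bars the group mean ± SD. Nuclear scores of 3 animals at 28 dpi lie below all sham animals, and in the right panel all 5 animals at 42 dpi lie above all sham animals.

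At 28 dpi most nuclear members were lower than in sham, and no nuclear member was called higher. The test called 67 of 83 nuclear members lower (80.7%), where 13.0% of all genes were called lower and 11.9% higher. The median log2 fold change of the nuclear members was -0.44, with a range from -0.75 to 0.036, beside -0.0048 over all genes. Scaled to the same sum in every animal, it was -1.22 with all genes at -0.73, and 82 nuclear members were called lower, as were 66.0% of all genes under this scaling. With a fold change above 1.5 as well, 10 nuclear members were called lower, against 0.488% of all genes. These 10 were Ndufa1, Ndufa4, Ndufa6, Ndufb3, Ndufb9, Cox7b, Cox7c, Atp5k, Atp5l and Uqcr10, all small subunits outside the catalytic cores, with log2 fold changes from -0.75 for Cox7c to -0.59 for Ndufa4. In 3 nuclear members (3.61%) every 28 dpi animal lay below every sham animal, close to the 3.75% found over all genes.

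The fall was not alike in the 5 animals at 28 dpi. In A4-4, A3-3 and A4-3 respectively 79, 71 and 66 of the 83 nuclear members lay below the lowest sham value, and in A3-1 and A4-1 only 7 and 5. As a mean over the nuclear members relative to sham (in log2 units), these animals scored -0.76, -0.67, -0.58, -0.12 and -0.026, while the sham animals ranged from -0.43 to 0.30. Of the 3 animals with the low scores, each also had 18S rRNA at 291950 or more, but A3-1 with 417971 was close to the sham mean. The count of 67 was 37, 43 and 38 without A3-3, A4-3 and A4-4 respectively, 32 without the sham animal A12-1 and 40 without A12-3. It was 0 with 18S rRNA as a covariate (median log2 fold change -0.31) and 16 in a fit of the sham and 28 dpi groups only. The share of all genes called in these fits is not given, so a loss particular to the members cannot be read from them. Leaving out the animals with high 18S rRNA leaves A4-1 alone at 28 dpi, so that its median of -0.029 restates the score of that animal. The count of 0 then takes the spread from the other groups and says nothing about the other 4 animals.

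The core of complex I, which carries its flavin and iron-sulfur clusters, was called lower in 7 of 7 nuclear subunits with a median log2 fold change of -0.36. Ndufs1, its largest subunit, had the smallest p among them. Sham values were 126.3, 130.8, 131.5, 132.2 and 144.9 normalized CPM, and the 28 dpi values 109.3, 110.4, 110.8, 114.7 and 120.7. These groups did not overlap, with a log2 fold change of -0.23 ± 0.050 (SE, adjusted p = 0.00242 by limma, exact permutation p = 0.00794). Ndufv2, an iron-sulfur subunit, fell from 97.7 ± 20.9 to 67.4 ± 14.7 (SD, n = 5 each) with 3 of 5 animals below the sham range (log2 fold change -0.53, adjusted p = 0.0032 by limma).

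Among the accessory subunits of complex I, which surround the core, 22 of 29 were called lower with a median log2 fold change of -0.47. Ndufb9 of the membrane arm had 48.7, 62.3, 65.2, 70.8 and 74.1 normalized CPM in sham animals. At 28 dpi it had 31.8, 34.9, 38.8, 52.2 and 58.1, so that 3 animals were below the sham range and 2 within it. Its log2 fold change was -0.59 ± 0.12 (SE, adjusted p = 0.00189 by limma, exact permutation p = 0.0238). Ndufb8 and Ndufa10 had log2 fold changes of -0.53 and -0.34 and were called as well. Of 8 assembly factors 5 were called lower with a median of -0.33. Ndufaf4 was the factor whose animals did not overlap, with a sham range of 21.7 to 27.4 and a 28 dpi range of 15.9 to 20.3 (log2 fold change -0.34 ± 0.080, adjusted p = 0.00416 by limma). For Ndufaf2, with a log2 fold change of -0.57, 65.1% of the 31-base words also occur in B230220B15Rik, which was not analysed here, so reads of these genes may have been split.

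**Figure D2:**
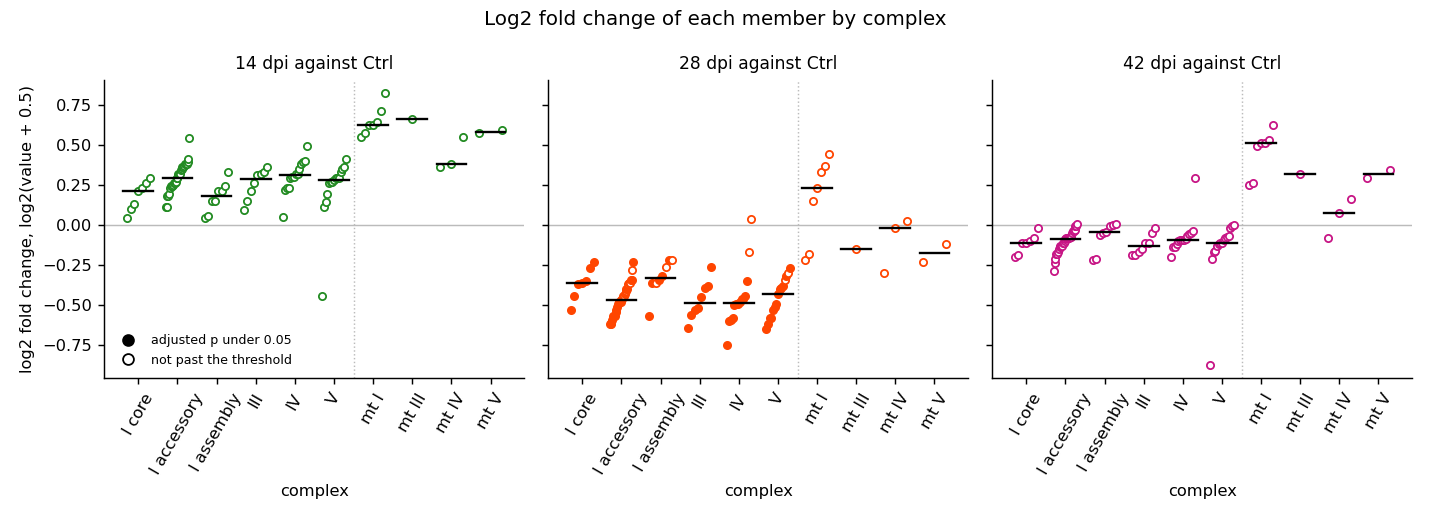
Log2 fold change against sham (vertical axis) of each member at 14, 28 and 42 dpi, grouped by complex, with mitochondrially encoded (mt) members to the right of the dotted line. The 2 members with an Atp5 symbol that are not counted as subunits (Atp5s, Atp5sl) are not drawn. Filled points were called (adjusted p under 0.05, limma), lines are medians. Filled points appear only at 28 dpi and only among nuclear members, whose medians there lie between -0.48 and -0.33.

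All 8 nuclear genes of complex III, which hands electrons from ubiquinol to cytochrome c, were called lower with a median log2 fold change of -0.48. Uqcr10, a small subunit beside cytochrome c1, had 24.1, 35.2, 35.2, 42.7 and 46.6 normalized CPM in sham animals and 17.0, 18.7, 20.4, 29.4 and 32.0 at 28 dpi. Again 3 animals were below the sham range, and the log2 fold change was -0.64 ± 0.15 (SE, adjusted p = 0.00356 by limma, exact permutation p = 0.0397). The core protein Uqcrc2 fell from 118 ± 13.7 to 90.5 ± 15.3 (SD, n = 5 each, log2 fold change -0.39), and its partner Uqcrc1 had a log2 fold change of -0.26. Uqcr11, whose promoter is printed above, had a log2 fold change of -0.53 with an adjusted p of 0.02 by limma.

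In complex IV, the oxidase that reduces oxygen, 12 of 14 nuclear members were called lower with a median log2 fold change of -0.48. Cox7c had the largest fall of all members. Its sham values were 27.1, 43.3, 44.5, 57.9 and 62.9 normalized CPM and its 28 dpi values 20.8, 20.9, 23.4, 34.8 and 38.1. The 3 lowest lay below the sham range, with a log2 fold change of -0.75 ± 0.18 (SE, adjusted p = 0.00467 by limma, exact permutation p = 0.0397). Ndufa4, named for complex I but found in complex IV, changed by -0.59, Cox5a by -0.44, Cox4i1 by -0.50 and Cox6a1 by -0.49 on the log2 scale, and all 4 were called. The 2 members not called were Cox7a1 and Ndufa4l2, each at or below 3.2 normalized CPM in every animal.

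Of the 15 nuclear subunits of complex V 13 were called lower with a median log2 fold change of -0.43. Neither of the 2 other members with an Atp5 symbol (Atp5s and Atp5sl, median -0.16) was called, and these 2 were counted with no complex. Atp5b had 709, 767, 790, 858 and 922 normalized CPM in sham animals and 554, 619, 619, 727 and 728 at 28 dpi. Its log2 fold change was -0.32 ± 0.074 (SE, adjusted p = 0.00387 by limma, exact permutation p = 0.0238), with 3 animals below the sham range. Atp5a1, the alpha subunit that alternates with beta in the catalytic ring, had a sham range of 601 to 673 and a 28 dpi range of 482 to 547. These groups did not overlap, although the log2 fold change of -0.27 ± 0.056 (SE, adjusted p = 0.00218 by limma) was the smallest of the 15 subunits. Across the 83 nuclear members, which are not independent replicates, the fall at 28 dpi was only weakly related to transcript length and level. It tended to be larger with a short transcript (Pearson r of log2 fold change with log2 length 0.275) and a high level (r with mean log2 value -0.234). The pseudocount, which understates changes of low genes, also acts on the relation with level.

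**Figure D3:**
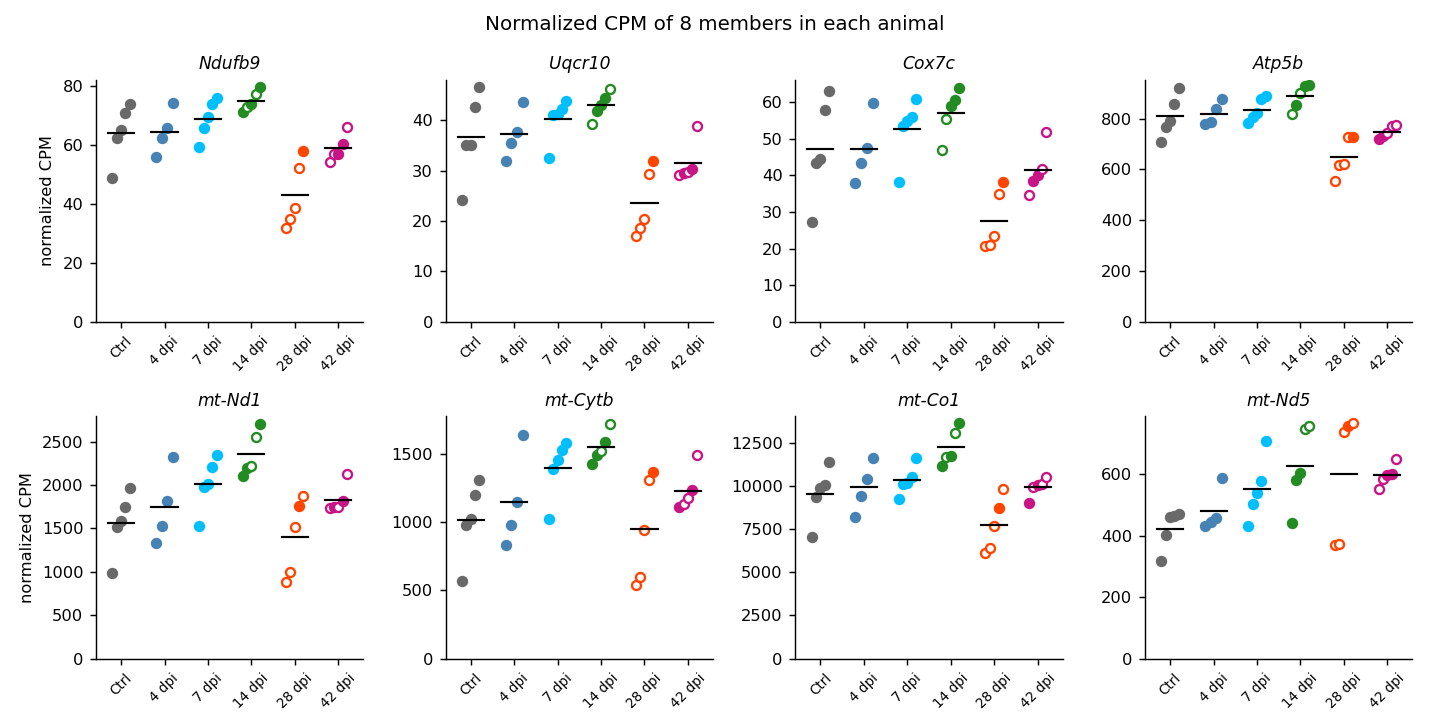
Normalized CPM (vertical axis, from 0) of 8 members in each animal by group, with the group mean as a line and open points for the 9 animals with high 18S rRNA. In each nuclear gene of the upper row 3 animals at 28 dpi lie below the sham range. In mt-Nd5 3 of 5 animals at 28 dpi lie above the sham range, whereas none does in mt-Nd1.

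Of the 13 mitochondrially encoded members none was called at 28 dpi (limma, 2 with an unadjusted p under 0.05), and the median log2 fold change was -0.018. Where every animal was scaled to the same sum the median was -0.81 and 9 were called. Under that scaling the median of all genes was -0.73 and 66.0% of all genes were called lower. On the deposited scale the median of the 13 was between -0.12 and 0.059 without single animals. The values along the mitochondrial genome (GRCm38, chromosome MT) are given as a description, since differences between the genes were not tested. mt-Nd4l, mt-Nd4, mt-Nd5 and mt-Nd6, which lie side by side from base 9877 to base 14070, had log2 fold changes of 0.23, 0.33, 0.44 and 0.37. mt-Nd2 (bases 3914 to 4951) had 0.15 and the remaining 8 lay between -0.30 and 0.023. mt-Co1 had the lowest, -0.30 ± 0.14 (SE, adjusted p = 0.115 by limma), with sham values of 7020, 9377, 9853, 10036 and 11396 normalized CPM and 28 dpi values of 6104, 6400, 7704, 8734 and 9842. mt-Nd5 had the highest, 0.44 ± 0.18 (SE, adjusted p = 0.0701 by limma), with sham values of 318, 402, 462, 464 and 469 and 28 dpi values of 370, 372, 737, 757 and 765. Of the latter 3 were above the sham range and 2 within it.

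Near-identical nuclear copies of mitochondrial genes hold some of the reads. Of the 31-base words of mt-Co2, 99.5% also occur in Gm28661, of mt-Co3 99.9% in Gm28437, of mt-Nd3 98.1% in Gm28438 and of mt-Atp6 99.5% in Gm10925. mt-Co1 shares 45.2% with Gm13340. The share of the summed value of gene and copies that was assigned to the gene ranged from 6.30 to 22.6% for mt-Co2, from 21.4 to 63.1% for mt-Co3 and from 44.1 to 97.5% for mt-Nd3, so the values of these 3 genes are uncertain. With the copies added, the log2 fold change at 28 dpi was -0.28 for mt-Co2 (from 0.023), -0.45 for mt-Co3 (from -0.018) and -0.45 for mt-Nd3 (from -0.22), with adjusted p of 0.296, 0.0999 and 0.107 (limma). The median of the 13 was then -0.15 and none was called. mt-Nd4 (62.8%) and mt-Nd4l (98.9%) also share words with copies that were not analysed here.

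**Figure D4:**
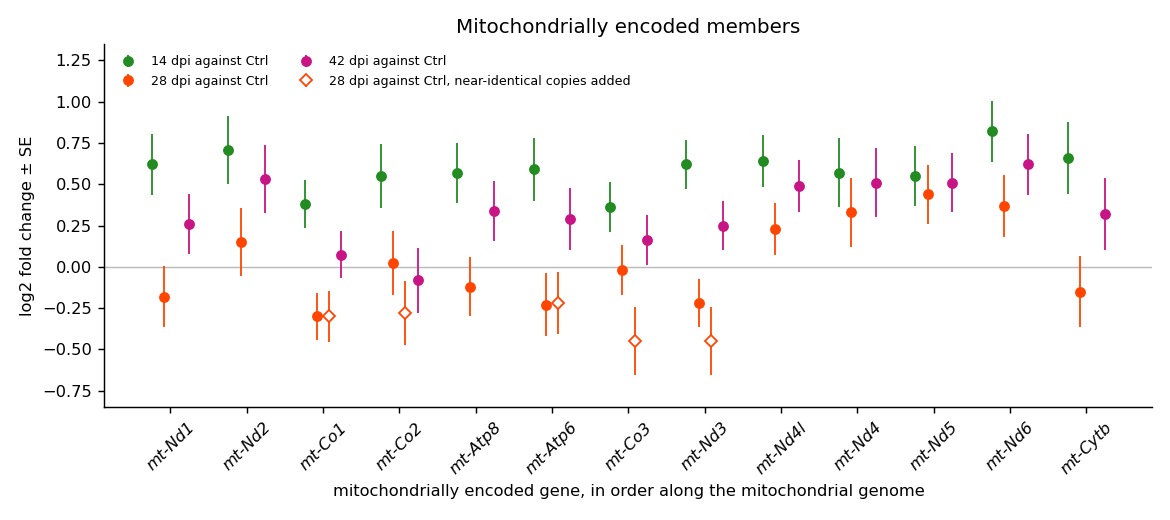
Log2 fold change against sham ± SE (limma) of the 13 mitochondrially encoded members at 14, 28 and 42 dpi, in their order along the mitochondrial genome. Open diamonds give the 28 dpi values after adding near-identical nuclear copies. All values at 14 dpi are above 0, and at 28 dpi those of mt-Nd4l, mt-Nd4, mt-Nd5 and mt-Nd6 are above 0 while mt-Co1 is at -0.30.

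A scaling factor common to all genes of an animal leaves the distance between both genomes unchanged, apart from the pseudocount. The difference of the mean scores (mitochondrial minus nuclear, log2 units) ranged from -0.10 to 0.20 in sham, from -0.079 to 0.22 at 4 dpi, from 0.069 to 0.29 at 7 dpi and from 0.029 to 0.51 at 14 dpi. The sham range was exceeded by 1 of 4, 2 of 5 and 4 of 5 animals at these times. It was 0.18, 0.26, 0.42, 0.49 and 0.94 at 28 dpi, where 4 of 5 animals exceeded the sham range. At 42 dpi it was 0.39, 0.41, 0.44, 0.44 and 0.48, and all 5 animals exceeded it. The means were 0.33 ± 0.20 at 14 dpi, 0.46 ± 0.30 at 28 dpi and 0.43 ± 0.033 at 42 dpi (SD, n = 5 each). With a correction for transcript length and GC content the last 2 were 0.42 and 0.33. With copies added they were 0.38 and 0.46, and 3 and 5 animals exceeded the sham range. This difference also rose with 18S rRNA (Pearson r = 0.715 with its log2 value over 29 animals, 0.403 after subtracting group means), whereas the nuclear score fell with it (r = -0.437 and -0.299). It was 0.42 in A4-1 at 28 dpi, whose 18S rRNA of 44755 lay within the sham range. At 42 dpi it was 0.39 in A1-3 and 0.41 in A1-4, whose 18S rRNA of 78737 and 154685 was below 3 times the highest sham value but above that value itself. The part of 18S rRNA in these differences was not tested further.

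**Figure D5:**
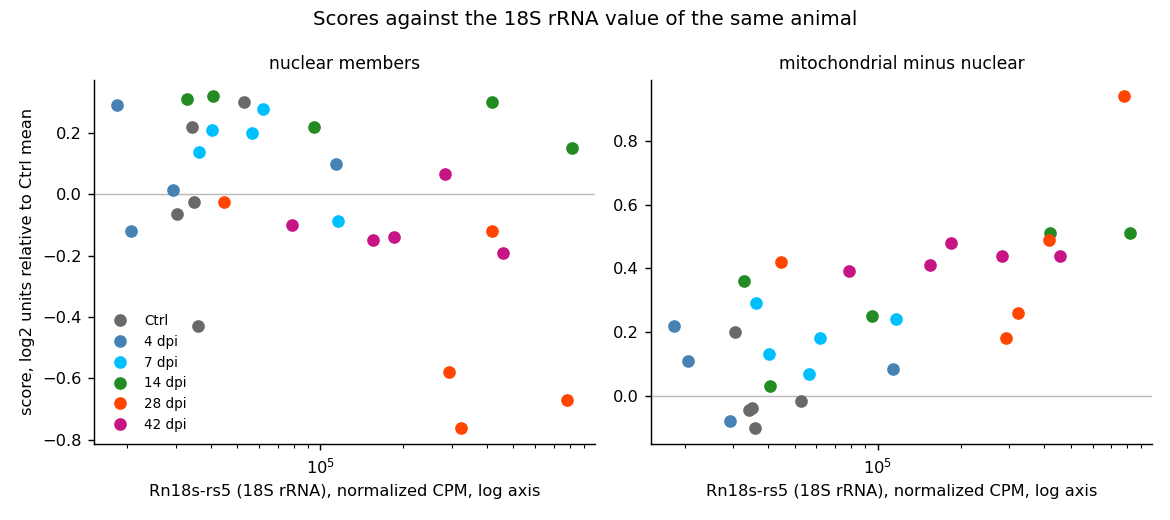
Nuclear score (left) and mitochondrial minus nuclear score (right, log2 units relative to sham) of each of 29 animals against its Rn18s-rs5 value in normalized CPM on a log axis, coloured by group. The 3 lowest nuclear scores belong to 28 dpi animals with 18S rRNA of 291950 or more, but 14 dpi animals with 419050 and 817780 have scores of 0.30 and 0.15.

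Against 14 dpi, the group with the highest medians on the deposited scale but not with the same sum in every animal, most members were lower at 28 dpi. The test called 80 of 83 nuclear members (96.4%) and 10 of 13 mitochondrial members (76.9%) lower, where 21.9% of all genes were called lower, with median log2 differences of -0.75 and -0.56. With a fold change above 1.5 as well, 58 nuclear and 6 mitochondrial members were called, against 4.22% of all genes. In 73 nuclear (88.0%) and 5 mitochondrial members (38.5%) the 28 dpi animals all lay below the 14 dpi animals (11.8% of all genes). For Cox7c the 14 dpi values were 46.9, 55.3, 58.9, 60.4 and 63.9 normalized CPM, above the 28 dpi maximum of 38.1, with a log2 difference of -1.08 ± 0.18 (SE, adjusted p = 5.58e-05 by limma). The mitochondrial members not called were mt-Nd4, mt-Nd5 and mt-Nd6, with log2 differences of -0.23, -0.11 and -0.45. Called lower in the same comparison were 77 of 82 cytosolic ribosomal protein genes (median -0.77), 33 of 37 proteasome genes, 4 of 7 neuronal, 5 of 6 oligodendrocyte and 2 of 6 microglial markers, while 2 of 4 endothelial markers were called higher. Their part in the values of the members was not tested. Leaving A4-1 alone at 28 dpi (no animals with high 18S rRNA, spread taken from the other groups), 1 nuclear and 0 mitochondrial members were called lower, with median differences of -0.34 and -0.16 for this single animal. Without 14 dpi A5-3, 28 dpi A4-3 or 28 dpi A4-4 the mitochondrial count was 6.

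At 42 dpi the nuclear members lay near sham values and the mitochondrial members mostly above them. No member was called against sham at 42 dpi (limma, 0.0235% of all genes called), with median log2 fold changes of -0.097 for nuclear and 0.32 for mitochondrial members. Without the sham animal A11-1 these were -0.21 and 0.12, and the nuclear median was -0.015 without sham A12-1 and -0.047 without sham A12-3. The mitochondrial median was 0.18 with the correction for length and GC content, and the nuclear median 0.0085 with 18S rRNA as a covariate. Scaled to the same sum, these medians were -0.65 and -0.24, with all genes at -0.52. An unadjusted p under 0.05 was found in 4 nuclear members, none of them higher, and in 5 mitochondrial members, all higher (8.40% of all genes were higher at this limit). These 5 were mt-Nd2, mt-Nd4, mt-Nd4l, mt-Nd5 and mt-Nd6, all of complex I. In 4 of them, all but mt-Nd2, every 42 dpi animal exceeded every sham animal (2.21% of all genes). For mt-Nd5 the 42 dpi values were 553, 583, 597, 599 and 649 normalized CPM, with a log2 fold change of 0.51 ± 0.18 (SE, adjusted p = 0.175 by limma, exact permutation p = 0.00794). The mitochondrial genes of complex IV had log2 fold changes at 42 dpi of 0.074 for mt-Co1, -0.081 for mt-Co2 and 0.16 for mt-Co3. With near-identical copies added these were 0.092, 0.24 and 0.15, so that the direction of mt-Co2 turned. Oligodendrocyte markers were low at this time, with a mean score of -0.35, 5 of 5 animals below the sham range and 6 of 6 genes at an unadjusted p under 0.05 (none called). The pericyte score of -0.22 also lay below the sham minimum in 5 of 5 animals, with 1 of 3 genes at this limit. The 2 mitochondrial ribosomal RNAs had a median log2 fold change of 0.51, and 18S rRNA lay above the sham range in 5 of 5 animals. Their part in the values of the members was not tested.

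Between 28 and 42 dpi 82 of 83 nuclear members had a positive log2 difference (median 0.35), and 5 were called higher (6.02%, against 1.45% of all genes). They were Atp5f1, the peripheral stalk subunit b of ATP synthase, and Ndufb9, Ndufv2, Ndufaf4 and Ndufaf7 of complex I, with log2 differences of 0.39, 0.48, 0.45, 0.30 and 0.36 and adjusted p between 0.0386 and 0.0458 (limma). In the same comparison 2 of 82 cytosolic ribosomal protein genes (median 0.36) and 4 of 37 proteasome genes (median 0.24) were called higher. Ndufb9 rose from 43.2 ± 11.4 to 59.0 ± 4.46 normalized CPM (SD, n = 5 each). The count of 5 nuclear members was 0 without any of the 28 dpi animals A3-3, A4-3 and A4-4 or the 42 dpi animals A1-1, A1-2, A1-4 and A3-4, and it was 39 without 28 dpi A3-1 and 42 without 28 dpi A4-1. With a random block for the unit number of the labels it was 21, at an estimated correlation within units of -0.0441. A3-1, A3-3 and A3-4 are the only animals of different groups that share a unit number in their labels. Within it the nuclear scores were -0.12 and -0.67 at 28 dpi and -0.19 at 42 dpi.

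Some subunits exist in several gene copies. The ubiquitous forms Cox4i1, Cox6a1, Cox6b1, Cox7a2 and Cox8a were all called lower at 28 dpi, with log2 fold changes between -0.50 and -0.46. Of the tissue-specific partners only Cox7a1, the heart and muscle form of Cox7a2, was measured, at 1.78 ± 0.789 normalized CPM in sham (SD, n = 5) and a log2 fold change of -0.17 at 28 dpi (adjusted p = 0.662 by limma). Cox4i2, Cox6a2, Cox6b2 and Cox8b were not analysed here. Ndufa4l2, the hypoxia-inducible relative of Ndufa4, lay between 0.3 and 1.5 normalized CPM in the 29 animals, with a log2 fold change of 0.036 at 28 dpi. Atp5g1, Atp5g2 and Atp5g3 encode the same mature c subunit of the ATP synthase rotor, and the first and the last were called lower (log2 fold changes -0.38 and -0.58). Atp5g2 was not called (-0.34), but its value of 0.2 to 5.8 in the 29 animals is uncertain because 37.5% of its words occur in Gm10175. With that copy added its log2 difference between 28 and 14 dpi was -0.65 instead of 0.10.

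Other nuclear genes of energy metabolism and of the mitochondrion were also lower at 28 dpi, read here against the 13.0% of all genes called lower and 11.9% called higher. Of the 6 genes of complex II and cytochrome c, all were called lower (median log2 fold change -0.34), among them Sdha (-0.18), the flavoprotein of succinate dehydrogenase, and Cycs (-0.47), somatic cytochrome c. In the tricarboxylic acid cycle 12 of 16 genes were called lower (median -0.29) and in glycolysis, a cytosolic pathway, 8 of 17 (-0.26). Of 27 assembly factors of complexes III to V 11 were called lower (-0.29), led by Cox20 (-0.65) and Uqcc2 (-0.60), and of 78 mitochondrial ribosomal proteins 30 (-0.28). Of 25 genes for maintenance and expression of mitochondrial DNA 6 were called lower (-0.18), among them Tfam (-0.27), which packages this DNA, and Slirp (-0.57), which stabilises its mRNAs. Of 10 regulators of mitochondrial biogenesis none was called lower and 3 were called higher: Ppargc1a (PGC-1alpha, 0.23), Pprc1 (0.42) and Ppard (0.38). Nrf1 itself had 0.10 and Gabpa -0.14, neither called.

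Lower values at 28 dpi were also found outside energy metabolism. Of 82 cytosolic ribosomal protein genes 59 were called lower with a median log2 fold change of -0.45, and of 37 proteasome genes 24 with a median of -0.31, both above the 13.0% of all genes called lower. The mean score of the nuclear members followed that of the ribosomal proteins over the 29 animals with Pearson r = 0.989 (0.976 after subtracting group means), that of the proteasome with r = 0.981 and that of the mitochondrial members with r = 0.718. All of these scores come from the same libraries. Of the cell type markers, 4 of 6 oligodendrocyte genes (median log2 fold change -0.38), 1 of 7 neuronal genes (Snap25, -0.30) and 2 of 6 astrocyte genes (Aqp4 and Aldh1l1) were called lower at 28 dpi, and their summed levels ranged from 4476 to 6587, 3908 to 4487 and 2835 to 3301. The astrocyte gene Slc1a2, a glutamate transporter, was called higher (0.29). Over the animals the nuclear score went with the neuronal score (r = 0.739, or 0.670 after subtracting group means) and with the oligodendrocyte score (r = 0.564 and 0.403). Endothelial markers were called higher in 2 of 4 genes (median 0.22), microglial in 1 of 6, meningeal in 1 of 3 and blood in 1 of 5, and pericyte markers in 0 of 3, where 11.9% of all genes were called higher. The mitochondrial ribosomal RNA mt-Rnr1 was called higher at 28 dpi (log2 fold change 1.11 ± 0.33, adjusted p = 0.0155 by limma) and mt-Rnr2 was not (0.27). The part of cell type composition and of ribosomal RNA in the fall was not tested beyond the values given here.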

How the data were processed

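RNA-seq values of 29 animals in 6 groups were used. A further animal labelled 4 dpi was not analysed here. Groups were taken from the labels, where Ctrl was read as the sham group by way of the paper. The deposited score of a gene is a normalized CPM that the authors made from ribosomal RNA-depleted libraries with SALMON on mm10, Tximport and edgeR 3.14.0 under R 3.4.1, leaving out genes with low expression and rounding to 0.1. These values are not counts, so no count test was used, and with the depth unknown precision rests on the spread between animals.

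Values were fitted as log2(value + 0.5) with limma 3.58.1 (R 4.3.3), 1 mean per group, a variance trend and Benjamini-Hochberg adjustment over 16995 genes. The pseudocount understates changes of low genes. An exact permutation test (two-sided, scipy 1.17.1), was added for single genes, with a smallest p of 0.00794 for 5 against 5 animals and 0.0159 for 4 against 5. On simulated data with 200 changed genes the 28 dpi comparison recovered 20.5% at a log2 change of 0.3 and 96.0% at 0.8. It made 2 and 5 false calls. In the animals the SD of the nuclear score ranged from 0.0731 at 14 dpi to 0.335 at 28 dpi. Whether these counts hold for genes that move together, or for groups of unequal spread, was not tested.

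Members, lists and tests were chosen with earlier results of these data known. Named were all mitochondrial members, the 3 members of smallest p at 28 dpi and the highest member in each nuclear group, subunits with several gene copies, and members called with a fold change above 1.5, of which those at 28 dpi against 14 dpi are counted only. Uqcr11, Atp5e, genes of few-member counts and genes of other lists were named after their values were seen. Transcript lengths and 31-base words came from GENCODE M21, which held all 96 members, 79 of them with the start in the authors' table. Promoters were RefSeq, and gene coordinates are those of the deposited table. The values of 1 named member are not reported here. Columns with the authors' own fold changes and p-values were not used. Alternatives were other normalizations, pseudocounts, filters and limits, the label unit as a random block, 18S rRNA as a covariate, a smooth fit to transcript length and GC content, and leaving out animals. Adding near-identical copies was chosen after seeing the data.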

Additional observations from a re-analysis of the deposited data

Results flagged for a closer look

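Among 354 groups of 4 or 5 animals 18 held an animal whose gap to the nearest other exceeded Dixon's limit, and chance gives about 1 in 20 groups. The 7 dpi animal A7-2 was low for Uqcr10 (32.5 normalized CPM, others 41.1 to 43.9), Ndufa6 (35.0, others 46.3 to 49.0), Cox7b (71.6, others 100.0 to 109) and the mean score of complex I assembly factors (-0.048, others 0.12 to 0.16). The 14 dpi animal A6-3, which had the highest 18S rRNA, was low for Ndufb3 (24.1, others 29.6 to 31.1) and Atp5l (37.3, others 45.2 to 48.4) and high for Cox7a1 (3.1, others 2.3 to 2.5).

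The 42 dpi animal A1-1 was high for mt-Nd1 (2122.7, others 1731.8 to 1813.5), mt-Nd4l (92.1, others 71.1 to 74.8), Uqcr10 (38.9, others 29.2 to 30.4) and the score of mitochondrial complex I genes (0.62, others 0.40 to 0.42). The 4 dpi animal A10-1 was high for mt-Nd3 (387, others 280.0 to 298), mt-Nd4 (827, others 521 to 549) and Atp5l (46.4, others up to 35.1). The 28 dpi animal A3-3 had 1650.3 for mt-Co3, a gene with a near-identical copy, against 924 to 1127.2 in the others. The remaining values were Cox7a1 in 7 dpi A8-3 (3.1, others 1.7 to 2.1), the score of Atp5s and Atp5sl in 14 dpi A5-3 (0.40, others 0.16 to 0.21) and the mitochondrial minus nuclear score in the sham animal A11-4 (0.20, others -0.10 to -0.016).

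Between time points, 80 nuclear and 10 mitochondrial members were lower at 28 than at 14 dpi (21.9% of all genes) and 5 nuclear members were higher at 42 than at 28 dpi (1.45% of all genes) by limma with Benjamini-Hochberg adjustment.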

How the results depend on the processing

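The counts of 0 members called at 4, 7 and 14 dpi against sham were 0 under every alternative run. At 42 dpi against sham 1 member was called with the same sum in every animal and 2 in a fit of only the groups compared. The 67 nuclear members lower at 28 dpi became 16 in that fit, 0 with 18S rRNA as a covariate, 0 without the animals with high 18S rRNA, 10 with a fold change above 1.5, 27 at an adjusted p under 0.01 and 32 to 77 without single animals. The 0 mitochondrial members called at 28 dpi became 1 with quantile normalization, 1 with median centring, 9 with the same sum (where 66.0% of all genes were called lower), 1 with the length and GC correction and 0 to 2 without single animals (2 without sham A11-1 or 28 dpi A4-4, 1 without 28 dpi A3-1 or A4-3). Against 14 dpi, the 80 nuclear members became 1 without the animals with high 18S rRNA. The 10 mitochondrial members became 0 there, 6 with the same sum, 6 with a fold change above 1.5, 6 at an adjusted p under 0.01 and 6 to 11 without single animals. The 5 nuclear members higher at 42 than at 28 dpi became 1 with quantile normalization, 0 with the same sum, without the variance trend, in the fit of only the groups compared, with the covariate, without the animals with high 18S rRNA, with a fold change above 1.5 and at an adjusted p under 0.01, 21 with a random block for the unit number of the labels, and 0 to 42 without single animals. The cause was not tested. For most of these alternatives the share of all genes called is not given, so changes particular to the members cannot be read from them. Leaving out the animals with high 18S rRNA leaves A4-1 alone at 28 dpi, assumed to vary like the other groups, so these values describe that animal and are no test of stability.

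Of 7263 log2 fold changes of 49 members under alternatives, 6732 kept direction and side of the threshold, 324 were no longer called and 92 became called. In 104 the sign changed but neither value was called, and in the following 11 it changed and at least 1 of both values was called. With the same sum, where the median of all genes was itself -0.73, 28 dpi against sham gave -0.64 for mt-Nd2 and -0.77 for mt-Co2. For A4-1 alone, without the animals with high 18S rRNA, it gave 0.013 for Cox6b1, 0.024 for Cox8a, 0.05 for Atp5g1, 0.028 for Ndufb3 and 0.05 for Uqcr11, and 28 against 14 dpi gave 0.022 for mt-Nd2, 0.057 for mt-Nd4l and 0.25 for Cox7a1. With copies added, 28 against 14 dpi gave -0.65 for Atp5g2. No paired analysis was possible because no animal number occurs in more than 1 group, and only the unit A3 holds animals of different groups. The unknown depth leaves the counting error of low members such as Cox7a1 and Ndufa4l2 unknown.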
